A study of Homo sapiens with 9 samples.

Results

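The mRNA levels of 10 genes that write, copy or remove DNA methylation, or that form the core of the Polycomb repressive complex PRC2, were followed in SW480 cells with and without an introduced APC gene. They were DNMT1, UHRF1, DNMT3A, DNMT3B, TET1, TET2, TET3, EZH2, SUZ12 and EED, 10 of the 20878 genes in the deposited counts. Rows were taken by gene name, and for each gene the transcript with the highest total count over the 9 libraries was used. SW480 is a human colorectal cancer cell line without functional APC, the tumour suppressor that holds beta-catenin in check. The APC group was clone D2.15, SW480 cells carrying the pEF vector with myc-tagged APC. The CONTROL group was clone R38.7, SW480 cells carrying the empty pEF vector. The SW480 group was the parental line.

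Each group had 3 libraries of polyadenylated RNA, taken 72 h after plating. All 3 lines were passaged 3 times and shared the same medium, but G418 was added for the APC and CONTROL clones and not for SW480. Fewer cells were plated for the APC clone, 2 for every 3.35 of CONTROL or SW480. Each group was 1 line grown on parallel plates, so the tests gauge plate-to-plate spread alone, and the effects of APC, clone and plating density cannot be told apart. The design used the vector line to account for changes unrelated to APC, so a gene is described as called in both comparisons when the APC line passed the test in the same direction against each of the other lines. These comparisons share the APC libraries.

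DNA methylation in mammals is laid down on cytosines of CG dinucleotides by the de novo methyltransferases DNMT3A and DNMT3B. It is copied after replication by DNMT1, which UHRF1 guides to half-methylated sites. TET1, TET2 and TET3 oxidise methylcytosine and so open a route to its removal. PRC2 methylates lysine 27 of histone H3 through its catalytic subunit EZH2, which needs SUZ12 and EED to be active. In colorectal tumours, methylation of CG-dense promoters is a well-known accompaniment of gene silencing.

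The 4 genes called in both comparisons were DNMT3A and EZH2, which were lower in the APC line, and DNMT3B and TET3, which were higher. Because CG dinucleotides are the sites of DNA methylation, the upstream regions of these 4 genes are shown with each CG in capitals. All 10 members matched a promoter entry in RefSeq on GRCh38.p14. The sequences are the 250 bases before an annotated RefSeq start of each gene, read on the strand of the gene. That start need not be the first or the main start of the gene, and other starts were not examined. The DNMT3A window was chr2:25342484-25342733 on the minus strand, and the EZH2 window was chr7:148884292-148884541 on the minus strand. The DNMT3B window was chr20:32779602-32779851 on the plus strand, and the TET3 window was chr2:73984660-73984909 on the plus strand.
DNMT3A: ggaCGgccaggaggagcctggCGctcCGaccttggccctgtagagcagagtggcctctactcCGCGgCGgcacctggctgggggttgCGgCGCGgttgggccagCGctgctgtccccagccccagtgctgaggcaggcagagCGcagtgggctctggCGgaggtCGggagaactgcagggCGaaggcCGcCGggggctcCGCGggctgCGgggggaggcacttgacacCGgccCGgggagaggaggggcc
EZH2: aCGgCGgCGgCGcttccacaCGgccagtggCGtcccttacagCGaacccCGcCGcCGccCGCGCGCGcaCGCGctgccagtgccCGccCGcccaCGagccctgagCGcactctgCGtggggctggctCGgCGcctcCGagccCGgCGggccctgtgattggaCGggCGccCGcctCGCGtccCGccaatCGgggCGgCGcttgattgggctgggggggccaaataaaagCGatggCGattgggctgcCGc
DNMT3B: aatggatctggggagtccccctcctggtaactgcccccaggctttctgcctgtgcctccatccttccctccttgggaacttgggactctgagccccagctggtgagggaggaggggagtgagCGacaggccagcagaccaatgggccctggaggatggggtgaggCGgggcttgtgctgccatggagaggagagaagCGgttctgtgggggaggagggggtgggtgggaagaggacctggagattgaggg
TET3: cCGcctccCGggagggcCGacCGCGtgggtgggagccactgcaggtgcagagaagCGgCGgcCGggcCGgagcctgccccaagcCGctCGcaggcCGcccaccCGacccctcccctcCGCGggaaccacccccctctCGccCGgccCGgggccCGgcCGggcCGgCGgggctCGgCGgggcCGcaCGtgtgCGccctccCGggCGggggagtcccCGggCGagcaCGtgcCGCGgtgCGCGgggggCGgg

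The EZH2 window held 38 CG dinucleotides, the TET3 window 37, the DNMT3A window 21 and the DNMT3B window 3. Over all 27305 promoter windows of this length the median was 11. Thus 96.8% of windows held fewer than EZH2, 96.1% fewer than TET3, 70.2% fewer than DNMT3A and 23.6% fewer than DNMT3B. Of the other members, SUZ12 had 34, UHRF1 28, DNMT1 21, EED 11, TET2 10 and TET1 9. The genes that fell and those that rose therefore did not separate by CG content in these windows. The RefSeq starts of TET3, TET1 and SUZ12 were not found among GENCODE transcript starts, and which start the cells used was not measured. Methylation itself was not measured either.

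Short words bound by E2F factors, the regulators of replication genes, were searched on both strands (TTTCCCGC, TTTGGCGC, TTTCGCGC and TTTGCCGC). They occurred in 2.79% of all windows, and among the members in UHRF1, 14 bases before the start, and in SUZ12, 189 bases before it. Words bound by TCF and LEF, the DNA-binding partners of beta-catenin, were CTTTGAA or CTTTGAT or CTTTGTA or CTTTGTT. They occurred in 12.1% of windows, and among the members in TET2, 146 bases before the start, and in SUZ12, 173 bases before it. A match describes the letters only.

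Levels are given in CPM, the count normalised for library size (with TMM scaling). Total counts per library ranged from 16456738 to 19358025, so 3 counts corresponded to 0.155 to 0.182 CPM before TMM scaling. Libraries of a group correlated at 0.9948 to 0.9962 across genes. APC transcript, which includes that of the construct, averaged 145 ± 5.0 CPM in the APC line, 47.9 ± 1.59 in CONTROL and 49.3 ± 2.46 in SW480 (SD, n = 3 each). Of 9 colon epithelial markers all were in the table, and their summed level was 6206 to 6376 CPM in APC, 6024 to 6320 in CONTROL and 5401 to 6043 in SW480. These markers did not move together: of 7 tested, 3 were called higher and 2 lower in the APC line in both comparisons. EPCAM and CDH1, which encode epithelial adhesion proteins, averaged 382 and 133 CPM in APC, 42.4 and 8.73 in CONTROL, and 49.4 and 7.23 in SW480. CDX2 was lower in APC, at 14.9 CPM, against 24.7 in CONTROL and 27.1 in SW480, and LGALS4 averaged at most 0.152 CPM. Among markers of other cells, leukocyte genes summed to 32.5 to 34.4 CPM in APC, 9.25 to 12.2 in CONTROL and 17.8 to 19.7 in SW480, mostly from CORO1A. Fibroblast genes summed to 17.1 to 17.9, 36.3 to 40.6 and 42.7 to 46.9 CPM in the same order of lines, neural genes to 26.1 to 30.9, 78.0 to 85.0 and 122 to 138, and endothelial genes to 1.15 to 1.52, 1.04 to 1.29 and 0.698 to 0.750. PTPRC, COL3A1 and DCN had no entry in the counts. The part of these differences in the results below was not tested.

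Differences between lines were very common in these data. The edgeR quasi-likelihood test, with p-values adjusted by the Benjamini-Hochberg method over the 14255 genes tested and a threshold of 0.05, called 72.5% of all genes in APC against SW480. It called 35.6% higher and 36.9% lower in the APC line. Against CONTROL it called 70.2%, with 34.8% higher and 35.4% lower in the APC line. Between CONTROL and SW480 it called 50.0%, with 25.3% higher and 24.7% lower in CONTROL. All 10 members passed the filter on low counts.

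Of the members, 7 of 10 were called in APC against SW480, 2 higher and 5 lower. Against CONTROL 6 of 10 were called, 4 higher and 2 lower, and between CONTROL and SW480 8 of 10 were called, 2 higher and 6 lower in CONTROL. These counts lie near the background shares, except that the last is above its 50.0%. Called in both APC comparisons were 4 of 10 members, 2 higher and 2 lower, against 55.8% of all genes, of which 27.8% were higher and 28.0% lower. Lines were fully separated, with no overlap between their libraries, in 7 members when APC was set against SW480, in 7 when it was set against CONTROL, and in 8 when CONTROL was set against SW480. The shares over all genes were 73.1%, 73.4% and 56.6%. Median log2 fold changes of the members were -0.10, 0.02 and -0.22 in these 3 comparisons, against -0.01 over all genes in each. The members as a group thus stood out by neither number nor direction in the APC comparisons, and the values of single genes follow.

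**Figure D1:**
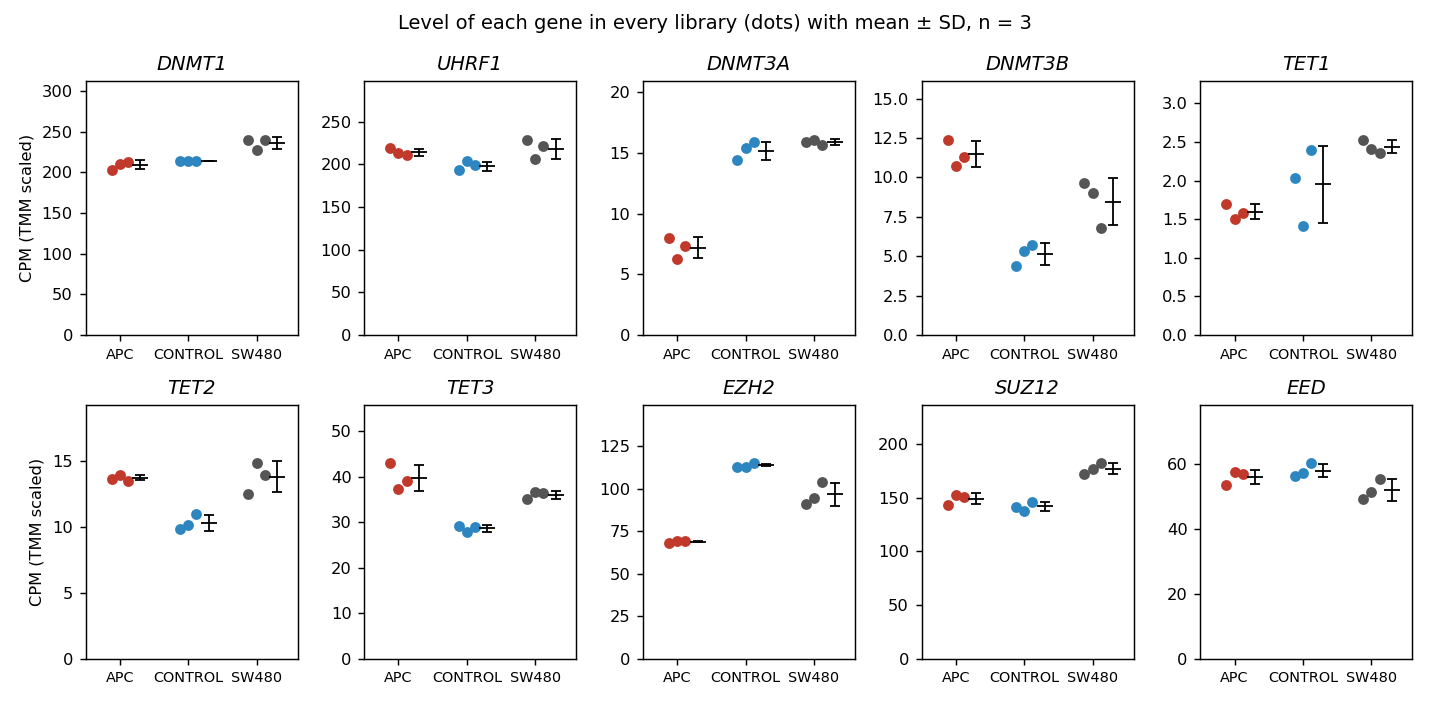
Level of each of the 10 genes in every library, in TMM-scaled CPM on linear axes that start at 0, with dots for libraries and bars for mean ± SD (n = 3). The APC dots of DNMT3A and EZH2 lie below all others, and those of DNMT3B and TET3 above all others.

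Per transcript length, the maintenance and PRC2 genes were far more abundant than the de novo and TET genes in every line. In the APC line the deposited RPKM, read counts normalised for transcript length and library size, averaged 48.0 for UHRF1, 33.8 for DNMT1, 29.1 for SUZ12, 22.2 for EZH2 and 20.2 for EED. There followed TET3 at 3.16, DNMT3B at 2.31, DNMT3A at 1.46, TET2 at 1.22 and TET1 at 0.145 RPKM. The 3 libraries of neighbouring genes in this order did not overlap. In CONTROL, EZH2 at 36.8 RPKM came next after UHRF1 at 44.8, whereas in SW480 it stood at 31.7 RPKM, below UHRF1, DNMT1 and SUZ12. DNMT3A stood above TET3 and DNMT3B in CONTROL (3.10, 2.30 and 1.05 RPKM) and in SW480 (3.29, 2.93 and 1.75 RPKM), so it stood below both in the APC line only. In CONTROL, DNMT3B overlapped TET2, which averaged 0.929 RPKM.

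DNMT1 and UHRF1, the pair that copies methylation through replication, differed little between lines. DNMT1, on chromosome 19, had 203, 210 and 213 CPM in the APC libraries, against 214, 214 and 214 CPM in CONTROL and 240, 227 and 240 CPM in SW480. The SW480 libraries were the highest, and both clones lay below all of them. In bulk RNA, fewer cells with a transcript and less of it per cell cannot be told apart. DNMT1 was 1.13-fold lower in APC than in SW480 (log2 fold change -0.18 ± 0.04 SE, edgeR adjusted p = 7.64e-05), and CONTROL was 1.10-fold lower than SW480 (-0.14 ± 0.04, edgeR adjusted p = 0.00174). Between the 2 clones the difference was -0.03 ± 0.04 on the log2 scale (edgeR adjusted p = 0.413).

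UHRF1, also on chromosome 19, binds half-methylated DNA and brings DNMT1 to it. It had 219, 213 and 211 CPM in the APC libraries, against 193, 204 and 199 CPM in CONTROL and 229, 206 and 221 CPM in SW480. The APC libraries lay above all CONTROL libraries and within the range of SW480. UHRF1 was 1.08-fold higher in APC than in CONTROL (0.11 ± 0.04, edgeR adjusted p = 0.0138), a call that was lost without CONTROL replicate 1, at 0.09. The APC line did not pass the test against SW480 (-0.03 ± 0.04, edgeR adjusted p = 0.523).

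Within a library, the ratio of UHRF1 to DNMT1 in RPKM was 1.49, 1.40 and 1.37 in APC, 1.25, 1.32 and 1.28 in CONTROL, and 1.32, 1.25 and 1.28 in SW480. All 3 APC libraries lay above the other 6. Its mean was 1.42 ± 0.0659 in APC, 1.28 ± 0.0342 in CONTROL and 1.28 ± 0.0334 in SW480 (SD, n = 3 each). For such ratios and shares, 42 exact two-sided permutation tests were run, and 3 libraries against 3 cannot give a p below 0.1. Each APC comparison of this ratio gave that smallest p of 0.1 (exact permutation test, 0.145 after Benjamini-Hochberg adjustment over the 42). S1PR2, a receptor gene that overlaps DNMT1 by 83 bases on the same strand, averaged 4.29 ± 0.535 CPM in APC, 4.61 ± 0.507 in CONTROL and 3.87 ± 0.157 in SW480.

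The de novo methyltransferases moved in opposite directions. DNMT3A, on chromosome 2, had 7.97, 6.30 and 7.36 CPM in the APC libraries, against 14.4, 15.4 and 15.9 CPM in CONTROL and 15.9, 16.1 and 15.7 CPM in SW480. In counts these were 109 to 145 reads per APC library, 250 to 306 per CONTROL library and 292 to 301 per SW480 library. The APC values lay far below the other 6, and CONTROL overlapped SW480. DNMT3A was 2.20-fold lower in APC than in SW480 (-1.14 ± 0.09, edgeR adjusted p = 5.07e-13) and 2.11-fold lower than in CONTROL (-1.08 ± 0.09, edgeR adjusted p = 2.98e-12). CONTROL differed from SW480 by -0.06 ± 0.08 on the log2 scale (edgeR adjusted p = 0.537). Of all genes tested, 16.7% changed more than DNMT3A in size against SW480 and 17.1% against CONTROL.

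DNMT3B, the other de novo enzyme, lies on chromosome 20. It had 12.4, 10.7 and 11.3 CPM in the APC libraries, against 4.40, 5.34 and 5.72 CPM in CONTROL and 9.64, 9.0 and 6.77 CPM in SW480. The lines did not overlap, with APC highest and CONTROL lowest. DNMT3B was 1.36-fold higher in APC than in SW480 (0.44 ± 0.11, edgeR adjusted p = 7.45e-04) and exceeded its level in CONTROL 2.23-fold (1.15 ± 0.12, edgeR adjusted p = 5.92e-10). The vector clone itself was 1.64-fold lower than its parent (-0.72 ± 0.13, edgeR adjusted p = 2.46e-05), a larger fitted change than that between APC and SW480. Of all genes tested, 9.49% changed more than DNMT3B between CONTROL and SW480.

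Because the pair changed in opposite directions, the balance between them turned over. DNMT3B made up 60.7%, 62.9% and 60.6% of the summed RPKM of DNMT3A and DNMT3B in the APC libraries, against 23.3%, 25.8% and 26.4% in CONTROL and 37.6%, 35.8% and 30.1% in SW480. It was the more abundant of the pair in each APC library and the less abundant in each of the other 6. The ratio of DNMT3B to DNMT3A was 1.59 ± 0.0875 in APC, 0.337 ± 0.0287 in CONTROL and 0.530 ± 0.0894 in SW480 (SD, n = 3 each). Every pair of lines was free of overlap in this ratio, with p at its smallest value of 0.1 (exact permutation test, adjusted p = 0.145). The sum of both genes was 3.77 ± 0.306 RPKM in APC, 4.15 ± 0.275 in CONTROL and 5.04 ± 0.382 in SW480. DNMT1 made up 90.0 ± 0.999% of the 3 methyltransferases in APC, 89.4 ± 0.650% in CONTROL and 88.6 ± 0.873% in SW480.

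**Figure D2:**
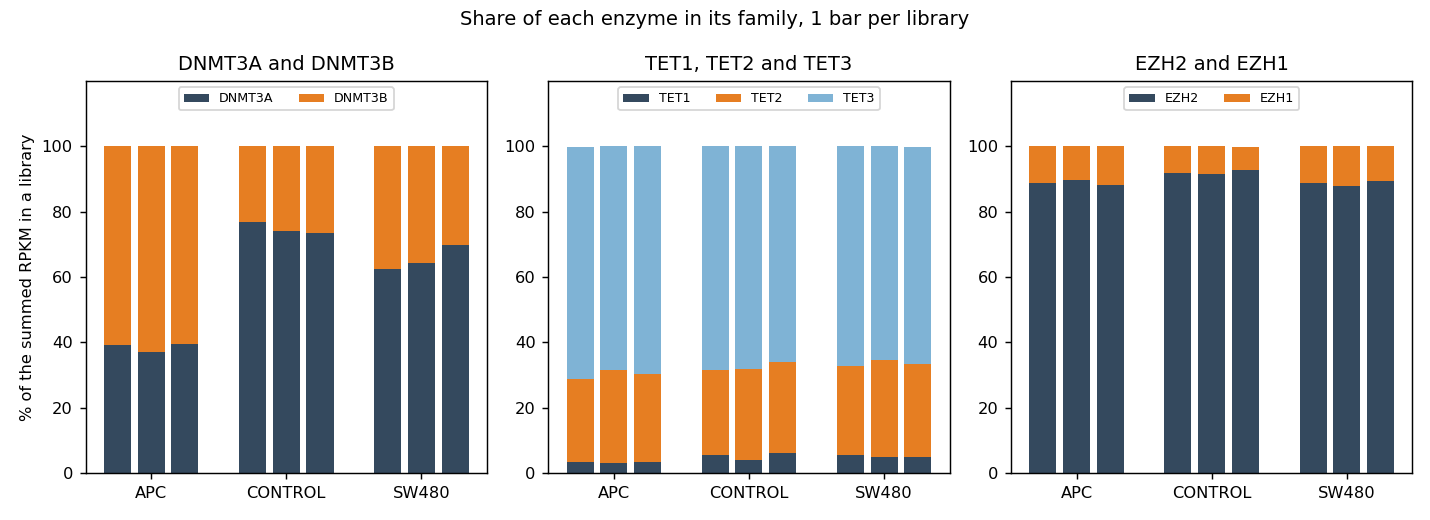
Share of each enzyme in the summed RPKM of its family, in percent, with 1 bar per library. DNMT3B takes 60.6% to 62.9% of the de novo pair in APC libraries and 23.3% to 37.6% in CONTROL and SW480 libraries. TET3 takes 65.4% to 71.3% of the TET sum over all 9 libraries, and EZH2 takes 88.0% to 92.7% of the pair with EZH1, with the CONTROL libraries highest.

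DNMT3A was listed with 4 transcripts, and reads were counted for each transcript they overlapped. The shorter transcript that encodes DNMT3A2, a form that lacks the amino-terminal part, had 3608 bases against 4324 for the transcript used. Its count was 69.7%, 78.0% and 79.4% of that transcript's in APC, 82.5%, 83.6% and 86.6% in CONTROL, and 78.0%, 82.1% and 80.5% in SW480. The APC libraries lay below CONTROL and overlapped SW480. For another short transcript, of 1775 bases, the percentages were 32.4%, 25.7% and 18.3% in APC and 18.6%, 16.4% and 16.7% in CONTROL. They were 22.6%, 15.9% and 21.9% in SW480, and APC overlapped both other lines. Because the listed transcripts share reads, such percentages do not measure the amount of any form of DNMT3A. The 6 transcripts listed for DNMT3B shared nearly all reads, so its splice forms could not be separated either.

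The TET genes were led by TET3. TET1, on chromosome 10, was scarce, with 1.70, 1.50 and 1.58 CPM in the APC libraries, against 2.04, 1.41 and 2.39 CPM in CONTROL and 2.53, 2.41 and 2.36 CPM in SW480. These rest on 23 to 47 reads per library. APC lay below SW480 and overlapped CONTROL, whose own libraries were spread widely. TET1 was 1.52-fold lower in APC than in SW480 (-0.61 ± 0.21, edgeR adjusted p = 0.00914), a call that DESeq2 did not make (-0.60, adjusted p = 0.0655). Against CONTROL the difference was -0.30 ± 0.22 (edgeR adjusted p = 0.212), with -0.47 without CONTROL replicate 2 and -0.12 without CONTROL replicate 3.

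TET2, on chromosome 4, is the family member most often mutated in blood cancers. It had 13.6, 13.9 and 13.5 CPM in the APC libraries, against 9.83, 10.1 and 11 CPM in CONTROL and 12.5, 14.8 and 13.9 CPM in SW480. The CONTROL libraries stood apart below the other 6, and APC lay within the range of SW480. TET2 was 1.32-fold higher in APC than in CONTROL (0.41 ± 0.09, edgeR adjusted p = 1.34e-04), and CONTROL was 1.33-fold lower than SW480 (-0.42 ± 0.09, edgeR adjusted p = 1.70e-04). APC differed from SW480 by -0.01 ± 0.08 on the log2 scale (edgeR adjusted p = 0.920).

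TET3, on chromosome 2, had 42.9, 37.3 and 39.0 CPM in the APC libraries, against 29.2, 27.8 and 29 CPM in CONTROL and 35.1, 36.7 and 36.4 CPM in SW480. CONTROL was again the lowest line, and APC lay just above SW480. TET3 was 1.39-fold higher in APC than in CONTROL (0.47 ± 0.06, edgeR adjusted p = 1.48e-08) and exceeded its level in SW480 1.10-fold (0.14 ± 0.06, edgeR adjusted p = 0.0266). The second call was lost without APC replicate 1, at 0.09, and without SW480 replicate 1, at 0.12, and also in DESeq2 (0.15, adjusted p = 0.0662). CONTROL was 1.26-fold lower than SW480 (-0.33 ± 0.06, edgeR adjusted p = 2.37e-05). As for DNMT3B, the fitted change between the vector clone and its parent was larger than that between the APC line and its parent.

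In RPKM, TET3 made up 71.3%, 68.3% and 69.7% of the family in APC, 68.6%, 68.1% and 65.9% in CONTROL, and 67.4%, 65.4% and 66.5% in SW480. TET1 made up 3.21 ± 0.0482% in APC, 5.23 ± 1.14% in CONTROL and 5.15 ± 0.367% in SW480, and all APC libraries lay below the other 6. The family sum was 4.53 ± 0.188 RPKM in APC, 3.41 ± 0.140 in CONTROL and 4.42 ± 0.165 in SW480 (SD, n = 3 each). CONTROL therefore had the lowest sum, while APC and SW480 overlapped.

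**Figure D3:**
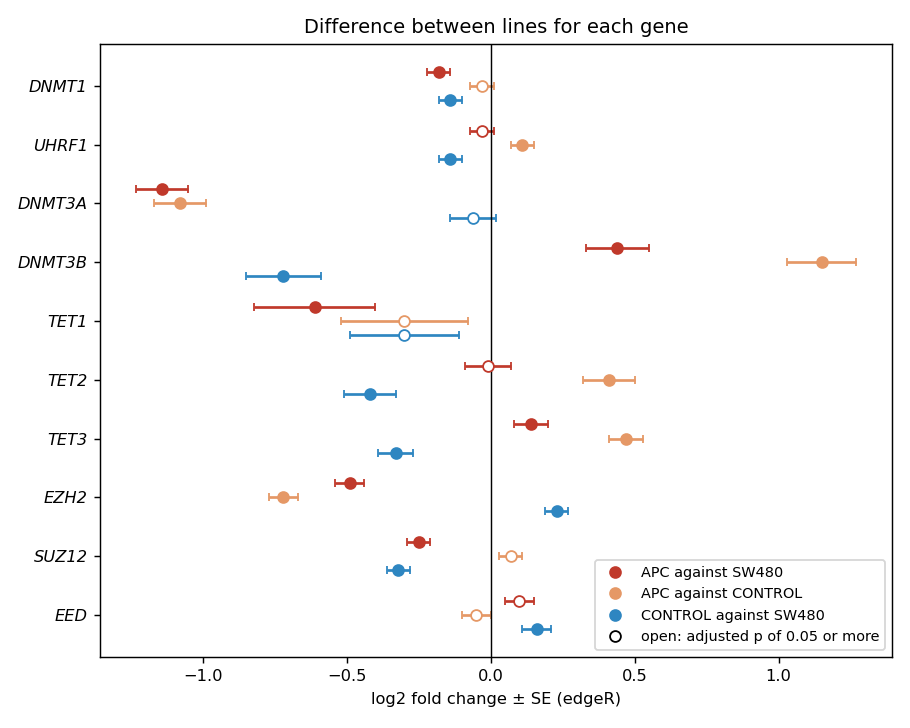
Log2 fold change ± SE from edgeR for each gene and each comparison of lines, with open symbols where the adjusted p was 0.05 or more. DNMT3A shows changes of -1.14 and -1.08 in the APC comparisons and -0.06 between CONTROL and SW480, whereas DNMT3B, TET2 and TET3 also differ between CONTROL and SW480.

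Among the PRC2 genes, only EZH2 was called in both APC comparisons. SUZ12 was called lower in the APC line against SW480 alone, and EED in neither comparison. EZH2, the histone methyltransferase, lies on chromosome 7 and had 68.4, 69.1 and 69.5 CPM in the APC libraries, against 113, 113 and 115 CPM in CONTROL and 91.2, 94.8 and 104 CPM in SW480. The 3 lines did not overlap, with APC lowest and CONTROL highest. EZH2 was 1.40-fold lower in APC than in SW480 (-0.49 ± 0.05, edgeR adjusted p = 2.66e-11) and 1.65-fold lower than in CONTROL (-0.72 ± 0.05, edgeR adjusted p = 1.01e-15). CONTROL was 1.18-fold higher than SW480 (0.23 ± 0.04, edgeR adjusted p = 4.74e-05), so the clones lay on opposite sides of their parent.

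SUZ12, the subunit that holds the complex together, lies on chromosome 17. It had 143, 153 and 151 CPM in the APC libraries, against 141, 138 and 146 CPM in CONTROL and 172, 177 and 182 CPM in SW480. Both clones lay below all SW480 libraries and overlapped each other. SUZ12 was 1.19-fold lower in APC than in SW480 (-0.25 ± 0.04, edgeR adjusted p = 1.11e-06), and CONTROL was 1.25-fold lower than SW480 (-0.32 ± 0.04, edgeR adjusted p = 3.00e-08). APC against CONTROL gave 0.07 ± 0.04 (edgeR adjusted p = 0.103), which passed the test without APC replicate 1, at 0.10, and without CONTROL replicate 3, at 0.11. SUZ12P1, a pseudogene of SUZ12 on the same chromosome, averaged 10.2 ± 0.749 CPM in APC, 6.86 ± 0.812 in CONTROL and 8.33 ± 0.420 in SW480. The match of its sequence to SUZ12 was not measured. How reads were split between these genes is not given in the sources used here.

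EED reads the methyl mark that the complex lays down, and its gene lies on chromosome 11. It had 53.6, 57.4 and 56.9 CPM in the APC libraries, against 56.3, 57.3 and 60.2 CPM in CONTROL and 49.1, 51.5 and 55.5 CPM in SW480. The APC libraries overlapped both other lines. EED differed by 0.10 ± 0.05 between APC and SW480 (edgeR adjusted p = 0.0703) and by -0.05 ± 0.05 between APC and CONTROL (edgeR adjusted p = 0.386). The first passed the test without APC replicate 1, at 0.14, and without SW480 replicate 3, at 0.16. CONTROL was 1.11-fold higher than SW480 (0.16 ± 0.05, edgeR adjusted p = 0.0123), a call lost without CONTROL replicate 3, at 0.12, and without SW480 replicate 1, at 0.11.

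Relative to its partners, EZH2 mRNA was lowest in the APC line. The ratio of EZH2 to SUZ12 in RPKM was 0.785, 0.741 and 0.758 in APC, 1.32, 1.35 and 1.29 in CONTROL, and 0.873, 0.879 and 0.943 in SW480. The lines did not overlap, and EZH2 exceeded SUZ12 in CONTROL only. The ratio of EZH2 to EED was 1.13, 1.07 and 1.08 in APC, 1.79, 1.75 and 1.69 in CONTROL, and 1.65, 1.63 and 1.67 in SW480. Here too the lines did not overlap, and each pair of lines gave the smallest p of 0.1 for either ratio (exact permutation test, adjusted p = 0.145). EZH1, the alternative catalytic subunit, left EZH2 88.9 ± 0.695% of the summed RPKM of the pair in APC, 92.0 ± 0.645% in CONTROL and 88.8 ± 0.727% in SW480. APC and SW480 overlapped in that share.

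**Figure D4:**
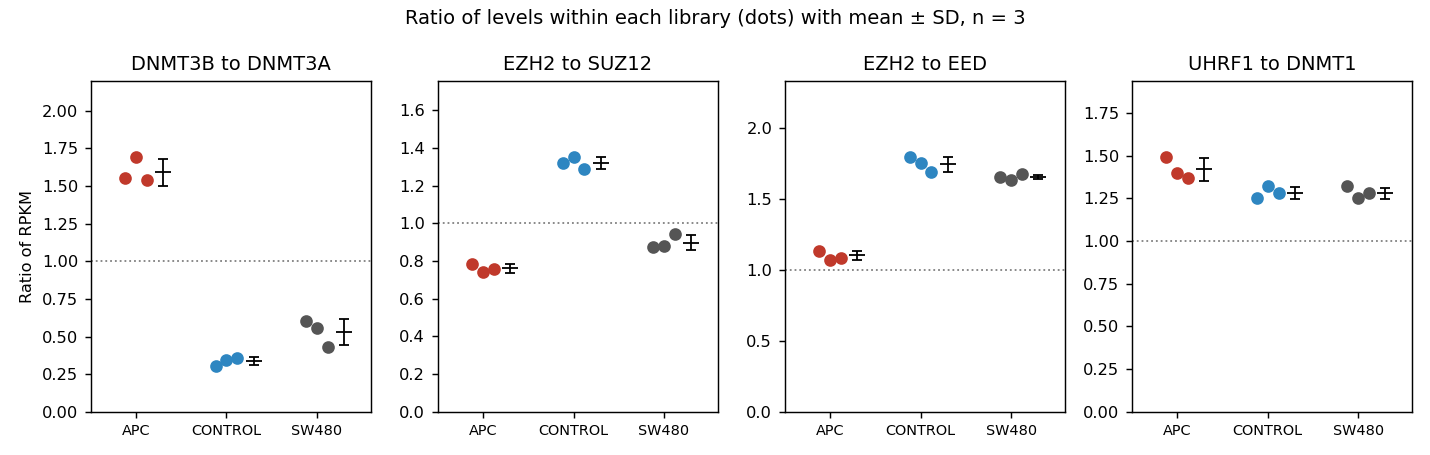
Ratios of RPKM within each library, on linear axes from 0, with dots for libraries, bars for mean ± SD (n = 3) and a dotted line at 1. DNMT3B exceeds DNMT3A in the APC line alone (1.59 ± 0.0875), and EZH2 exceeds SUZ12 in CONTROL alone (1.32 ± 0.0318).

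Genes that act with these enzymes were counted by list. For every list, the shares over all genes tested are the reference. These were 35.6% higher and 36.9% lower in APC against SW480, and 34.8% and 35.4% against CONTROL. In both comparisons they were 27.8% and 28.0%. Of 18 tested partners of DNA methylation, 8 rose and 4 fell in APC against SW480, 9 rose and 4 fell against CONTROL, and 7 rose and 4 fell in both. The median log2 fold changes were 0.10 and 0.14. Among those higher in APC was CDCA7, which works with the chromatin remodeller HELLS, at 166 ± 3.40 CPM in APC, 150 ± 4.80 in CONTROL and 118 ± 1.37 in SW480. AHCY, which clears the by-product of methylation reactions, averaged 662 ± 7.76 CPM in APC, 480 ± 8.02 in CONTROL and 513 ± 17.1 in SW480. MBD2, a reader of methylated DNA, was 1.33-fold higher in APC than in SW480 and 1.24-fold higher than in CONTROL.

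The zinc finger readers of methylated DNA differed among themselves. ZBTB38 averaged 109 ± 1.45 CPM in APC, 152 ± 7.41 in CONTROL and 150 ± 2.17 in SW480. ZBTB4 was 1.56-fold lower in APC than in SW480 and 1.11-fold lower than in CONTROL. Its second call was lost without APC replicate 2, at -0.07 on the log2 scale, without CONTROL replicate 3, at -0.12, and without APC replicate 3, at -0.14. ZBTB33, also called Kaiso, passed neither test, at 79.9 ± 3.15 CPM in APC, 81.0 ± 1.67 in CONTROL and 78.1 ± 1.93 in SW480. DNMT3L, the cofactor of the de novo enzymes, was too low to be tested, at 0.0183 CPM in APC, 0.0179 in CONTROL and 0.0358 in SW480. PCNA, the sliding clamp that also binds DNMT1, was 1.38-fold higher in APC than in CONTROL (444 ± 19 against 322 ± 6.84 CPM), while SW480 stood at 451 ± 15.4 CPM.

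Of 14 tested partners of TET enzymes and of cytosine repair, 3 rose and 5 fell in APC against SW480, and 5 rose and 7 fell against CONTROL. Each of those 3 and 5 was called in both comparisons. WT1, a transcription factor known to bind TET2 and TET3, averaged 28.7 ± 1.65 CPM in APC, 9.91 ± 0.155 in CONTROL and 6.68 ± 0.783 in SW480. It was 4.30-fold higher in APC than in SW480 (2.10 ± 0.09, edgeR adjusted p = 3.38e-21) and exceeded its level in CONTROL 2.89-fold (1.53 ± 0.08, edgeR adjusted p = 4.15e-18). TDG, the glycosylase that excises the oxidised bases made by TET enzymes, averaged 33.3 ± 1.13 CPM in APC, 22.0 ± 0.806 in CONTROL and 25.9 ± 0.165 in SW480. APEX1, which acts after it in base excision repair, was 1.07-fold higher in APC than in SW480 and 1.08-fold higher than in CONTROL.

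The members of that list that fell included IDH2, which makes the 2-oxoglutarate that TET enzymes use, at 37.6 ± 0.848 CPM in APC, 51.1 ± 1.05 in CONTROL and 52.2 ± 3.79 in SW480. GADD45B, a stress-response gene linked to demethylation, was 1.50-fold lower in APC than in SW480 and 1.84-fold lower than in CONTROL. VPRBP, also called DCAF1, a substrate receptor of the ligase that modifies TET proteins, was 1.44-fold and 1.12-fold lower in the same comparisons. SMUG1, a uracil glycosylase, was 1.48-fold lower in APC than in CONTROL, with 26.1 ± 0.526 CPM in APC, 38.4 ± 1.95 in CONTROL and 28.3 ± 1.39 in SW480. CXXC4, a CXXC-domain gene, was too low to be tested.

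PRC2 partners moved in both directions. Of 10 tested, 2 rose and 5 fell in APC against SW480, 2 rose and 4 fell against CONTROL, and 1 rose and 4 fell in both. The one that rose in both was PHF19, a Polycomb-like protein that targets PRC2 to chromatin, at 114 ± 3.36 CPM in APC, 103 ± 2.66 in CONTROL and 84.3 ± 1.96 in SW480. PHF1, another Polycomb-like protein, averaged 10.6 ± 0.686 CPM in APC, 15.5 ± 1.21 in CONTROL and 16.8 ± 1.68 in SW480. C17orf96, also called EPOP, a PRC2-associated protein, was 1.25-fold lower in APC than in SW480 and 1.51-fold lower than in CONTROL. EZH1 was 1.42-fold and 1.14-fold lower in the same comparisons. The EZH1 call against CONTROL (-0.19) was lost without APC replicate 1, at -0.19, APC replicate 2, at -0.13, CONTROL replicate 1, at -0.17, or CONTROL replicate 2, at -0.14. EZHIP, an inhibitor of PRC2, had no entry in the counts.

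PRC1 is the partner complex that reads the PRC2 mark and ubiquitinates histone H2A. Of 23 tested subunits, 6 rose and 11 fell in APC against SW480, 9 rose and 7 fell against CONTROL, and 6 rose and 7 fell in both. Over all genes tested, 27.8% rose and 28.0% fell in both. SCML1, a Scm-like Polycomb protein, averaged 48.6 ± 2.04 CPM in APC, 345 ± 13.5 in CONTROL and 222 ± 4.95 in SW480, 7.09-fold lower in APC than in CONTROL and 4.57-fold lower than in SW480. YAF2, a subunit of variant PRC1, stood at 7.04 ± 0.417, 16.8 ± 0.635 and 18.4 ± 0.389 CPM in APC, CONTROL and SW480. BCOR, a corepressor in another variant complex, was 1.66-fold lower in APC than in SW480 and 1.76-fold lower than in CONTROL.

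Higher in APC were the PRC1 genes CBX6, a chromodomain protein, at 89.0 ± 3.98 CPM in APC, 49.5 ± 1.46 in CONTROL and 55.0 ± 6.52 in SW480, and PCGF6, at 35.6 ± 1.90, 23.6 ± 1.58 and 21.9 ± 0.726 CPM in the same order. PHC1, a polyhomeotic subunit, was 1.42-fold higher in APC than in SW480 and 1.43-fold higher than in CONTROL. CBX2, a chromodomain subunit, was 1.46-fold lower in CONTROL than in SW480, at 29.2 ± 2.59 CPM in APC, 22.9 ± 1.28 in CONTROL and 33.4 ± 0.315 in SW480. RING1, a catalytic subunit, was listed at 0 counts in all 9 libraries. Counting error alone allows up to 0.182 CPM, before TMM scaling, in the shallowest of them. That limit does not cover reads lost in mapping or counting, and the treatment of reads matching several places is unknown. Whether the cells lacked RING1 mRNA therefore cannot be told from these counts.

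Enzymes that oppose Polycomb repression were counted next. Of 13 tested, 1 rose and 9 fell against SW480, 3 rose and 7 fell against CONTROL, and 1 rose and 6 fell in both, with median log2 fold changes of -0.26 and -0.15. Of all genes tested, 36.9% fell against SW480, 35.4% against CONTROL and 28.0% in both. BAP1, the deubiquitinase of histone H2A, averaged 93.9 ± 4.02 CPM in APC, 104 ± 0.764 in CONTROL and 140 ± 1.48 in SW480. Its partner ASXL1 averaged 154 ± 4.14, 139 ± 5.76 and 200 ± 3.99 CPM in the same order. SETD2, the methyltransferase for lysine 36 of histone H3, was 1.54-fold lower in APC than in SW480 and 1.12-fold lower than in CONTROL. NSD1, which methylates the same residue, was 1.38-fold and 1.20-fold lower in these comparisons. USP16, another deubiquitinase, was 1.26-fold and 1.13-fold higher. KDM6A and KDM6B, demethylases of the PRC2 mark, were chosen after their values were seen, and neither was called in both comparisons. KDM6A averaged 30.3 ± 0.447 CPM in APC, 28.6 ± 1.28 in CONTROL and 35.0 ± 0.478 in SW480. KDM6B averaged 37.7 ± 2.83, 26.9 ± 1.57 and 35.4 ± 2.11 CPM in the same order. Between CONTROL and SW480, 8 of the 13 genes were called lower in CONTROL and 3 higher. The shares over all genes were 24.7% and 25.3%.

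DNMT1, UHRF1 and EZH2 are known to be made mainly in dividing cells, so genes of DNA replication and E2F control were counted beside them. Of 30 tested, 11 rose and 14 fell in APC against SW480, 12 rose and 13 fell against CONTROL, and 9 rose and 12 fell in both. The medians were -0.08 and -0.05. TK1, thymidine kinase, averaged 254 ± 2.96 CPM in APC, 138 ± 3.86 in CONTROL and 134 ± 1.69 in SW480. CCNA2, cyclin A, was 1.33-fold higher in APC than in SW480 and 1.32-fold higher than in CONTROL, and GINS2, a replication factor, was 1.36-fold and 1.29-fold higher.

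In the other direction, CCNE2, cyclin E, averaged 21.2 ± 0.403 CPM in APC, 35.8 ± 0.200 in CONTROL and 36.1 ± 3.91 in SW480. TYMS and RRM2, which supply nucleotides, were 1.22-fold and 1.21-fold lower in APC than in SW480, and 1.42-fold and 1.27-fold lower than in CONTROL. CDC6, which loads the replicative helicase, averaged 124 ± 1.42 CPM in APC, 219 ± 6.16 in CONTROL and 149 ± 6.06 in SW480. E2F1 averaged 102 ± 4.0, 82.9 ± 3.25 and 122 ± 5.20 CPM in the same order. Replication genes thus moved both ways, and their part in the EZH2 difference was not tested.

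**Figure D5:**
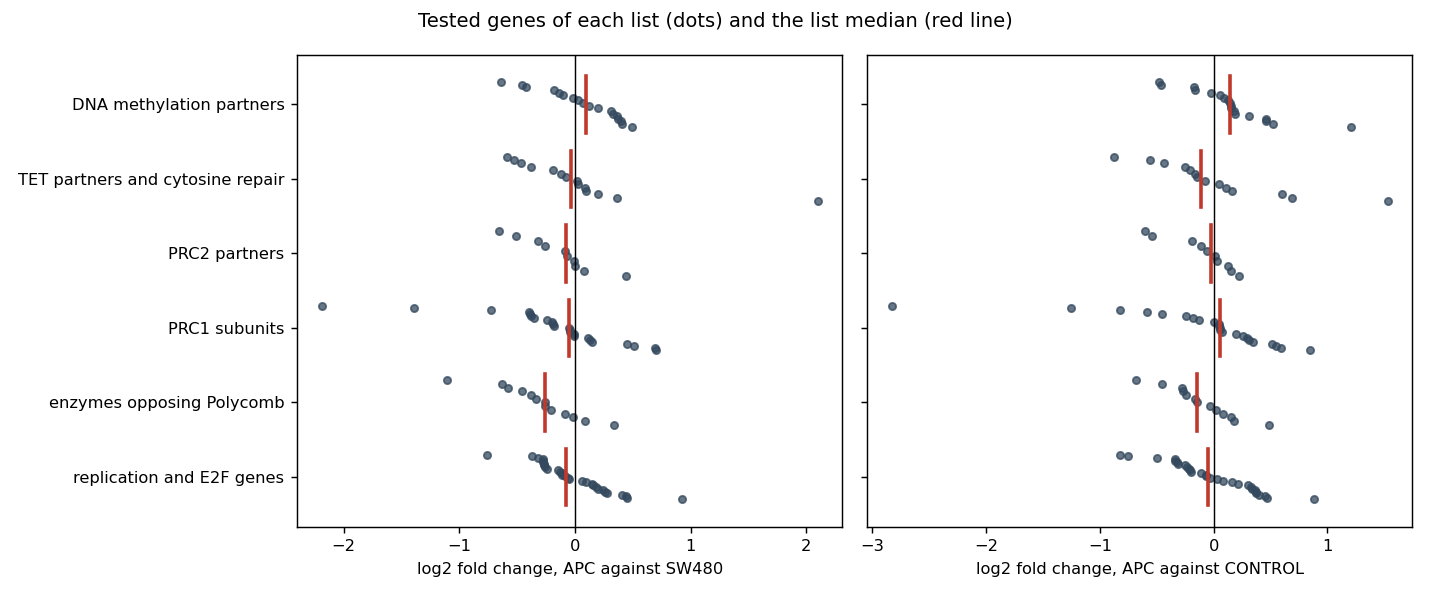
Log2 fold change of every tested gene (dots) and the median (red line) of 6 lists, those of DNA methylation, TET and PRC2 partners, PRC1 subunits, enzymes opposing Polycomb and replication genes, for APC against SW480 on the left and APC against CONTROL on the right. Medians of these lists stay between -0.26 and 0.14, while single genes such as WT1 (2.10 and 1.53) and SCML1 (-2.19 and -2.83) lie far out.

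Some members had many genes with a similar profile over the 9 libraries and others few. The gene most like DNMT3A was CSNK1E, casein kinase 1 epsilon (Pearson r of log2 CPM 0.9955), which averaged 66.0 CPM in APC, 100 in CONTROL and 104 in SW480. Of 9844 genes compared, 760 had r above 0.95 with DNMT3A, 625 with EZH2, 61 with TET3, 46 with DNMT3B and 44 with SUZ12. That number was 17 for DNMT1, 11 for TET2, 7 for EED, 5 for UHRF1 and 0 for TET1. The nearest gene to EZH2 was GOLGA5 (r = 0.9974), to DNMT3B ENGASE (0.9883), to TET3 SMIM10 (0.9882), to DNMT1 SLC4A7 (0.9976) and to SUZ12 SEC22C (0.9921). EED was nearest to SNRPG (0.9767), TET2 to LPP (0.9774), UHRF1 to HNRNPA0 (0.9749) and TET1 to NUP133 (0.9403). The 9 libraries form 3 lines, so these coefficients mostly describe the order of 3 means.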

How the data were processed

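Whole-number read counts per RefSeq transcript, deposited by the authors without normalisation, and the deposited RPKM values were used. Counts divided by length, with 1 constant for each library, gave the RPKM in 100% of values (relative tolerance 0.0001). The submitters' processing notes name Trimmomatic, TopHat and GATK, with hg19 as the build. For the counting tool, its use of strand and the annotation, nothing is stated: not given in the sources used here. Reads were counted for every transcript they overlapped: in 7537 genes with several transcripts the second highest had a median of 98.5% of the highest. Therefore 1 transcript per gene was used. The deposited gene-level RPKM repeated rows of the transcript table, for 20678 of 20876 genes that of the longest transcript. Of 65 gene names turned into dates, 62 were repaired.

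All 9 libraries were fitted together with edgeR 4.0.16 in R 4.3.3 (TMM, filterByExpr, robust quasi-likelihood). Benjamini-Hochberg adjustment ran over 14255 genes, and the SE was the size of the log2 fold change divided by the square root of F. The biological coefficient of variation was 3.56%. Total counts per library were 16456738 to 19358025, and counting limits cover counting error only. Replicates differed beyond counting noise (chi-square per degree of freedom 1.36 to 5.61). On simulated data with 14255 genes, 2-fold changes were recovered in 89% (APC against SW480), 93% (APC against CONTROL) and 93% (CONTROL against SW480) of cases, and 1.5-fold changes in 90%, 85% and 90%, with 6, 7 and 11 unchanged genes called. Only 100 genes per fold size were changed, far fewer than were called in the data, and all genes shared a single spread. These rates therefore need not hold for the real comparisons.

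The members and the gene lists were chosen with earlier results of these data known. From each list, up to 3 genes per direction called in both APC comparisons with the lowest adjusted p against SW480 were named, and up to 2 with the lowest adjusted p in CONTROL against SW480. Genes too low for the test are also named. Some genes that the rule names are not reported here. The nearest gene to a member had a mean of at least 10 CPM and the highest Pearson correlation of log2 (CPM + 0.5). Alternatives were DESeq2 1.42.0, RLE, upper quartile and library-total scaling, no filter, summed or longest transcripts, limma 3.58.1 on log2 of RPKM plus 1 or plus 0.1 (pseudocounts), pairwise fits of 6 libraries, leaving out each library, and a replicate block. For ratios of levels, the longest transcript, the gene-level RPKM and leaving out each library were chosen after seeing the data.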

Additional observations from a re-analysis of the deposited data

How the results depend on the processing

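No result changed sign as a call in any setting tried. DNMT3A, DNMT3B and EZH2 were called in the same direction in both APC comparisons in every setting. TET3 was not in DESeq2, where its change against SW480 was 0.15, upper quartile scaling (0.12), library totals (0.10), limma on RPKM (0.08 with a pseudocount of 1, 0.10 with 0.1, 0.08 on gene-level values), without APC replicate 1 (0.09) or without SW480 replicate 1 (0.12). It was called in the other leave-one-out fits, which reached 0.20. UHRF1 against CONTROL failed in limma (0.10, 0.10 and 0.09 in the same order) and without CONTROL replicate 1 (0.09, with up to 0.13 and a call in the other leave-one-out fits), and TET1 against SW480 in DESeq2 (-0.60). EED in APC against SW480 passed with RLE (0.11) and without a filter (0.12), and without APC replicate 1 (0.14) or SW480 replicate 3 (0.16); the other leave-one-out fits, from 0.06, made no call. In CONTROL against SW480 EED failed with library totals (0.12) and limma (0.13, 0.14 and 0.13), and without SW480 replicate 1 (0.11) or CONTROL replicate 3 (0.12); the other leave-one-out fits, up to 0.21, kept the call. SUZ12 in APC against CONTROL ranged from 0.05 to 0.11 with libraries left out, and passed without APC replicate 1 (0.10) or CONTROL replicate 3 (0.11). The cause was not tested. The ratio of UHRF1 to DNMT1 became 1.23 in CONTROL and 1.22 in SW480 with the longest transcript and with gene-level RPKM alike. Both take a longer UHRF1 transcript, of 4064 against 3900 bases, and the same DNMT1 transcript. This switch lowers the ratio in the APC line as well. DNMT3B in APC against SW480 ranged from 0.30 without SW480 replicate 3 to 0.54 without SW480 replicate 1. DESeq2 called 9665, 9324 and 5943 genes in APC against SW480, APC against CONTROL and CONTROL against SW480, and other scalings shifted the median log2 fold change of all genes by -0.045 to 0.012. Same-numbered libraries did not deviate together (correlations from -0.0686 to 0.106), so the numbers give no pairing. A replicate block gave 10297, 9993 and 7109 called genes, and 4 members called in both APC comparisons. Depth limits TET1 most, at 23 to 47 reads per library.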

Other observations

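Genes whose silence is often tied to DNA methylation were also listed. Of 22 germline genes 14 were in the counts, but only 4 passed the filter on low counts. In APC 2 of these fell against SW480 and 3 against CONTROL, where 36.9% and 35.4% of all genes tested fell. MAGEC2, a cancer-testis antigen gene, averaged 0.248 ± 0.136 CPM in APC, 98.5 ± 3.19 in CONTROL and 26.1 ± 0.847 in SW480, and it was 3.77-fold higher in CONTROL than in SW480 (edgeR adjusted p = 1.14e-24). MAGEC1, from the same family, averaged 0.188 ± 0.0801 CPM in APC, 1.93 ± 0.246 in CONTROL and 0.358 ± 0.0303 in SW480. STK31, a testis kinase gene, averaged 1.05 ± 0.292, 1.83 ± 0.113 and 1.97 ± 0.272 CPM in the same order. SYCP3, a meiotic gene chosen after its values were seen, averaged 3.29 ± 0.396, 3.38 ± 0.287 and 2.58 ± 0.375 CPM.

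Of 20 imprinted genes 14 were in the counts and 9 were tested. In APC against SW480 2 rose and 4 fell, against CONTROL 2 rose and 3 fell, and 2 rose and 2 fell in both. Over all genes tested, 27.8% rose and 28.0% fell in both. CDKN1C, a maternally expressed inhibitor of the cell cycle, averaged 1.85 ± 0.598 CPM in APC, 9.79 ± 0.760 in CONTROL and 17.8 ± 3.26 in SW480, and was 9.54-fold lower in APC than in SW480 (edgeR adjusted p = 1.70e-11). KCNQ1OT1, the antisense RNA from the same cluster, averaged 65.6 ± 2.75, 69.3 ± 3.26 and 83.7 ± 3.31 CPM in the same order, though its counts cannot be separated from KCNQ1 without strand. MEST averaged 114 ± 5.25 CPM in APC, 64.6 ± 2.11 in CONTROL and 63.9 ± 0.466 in SW480. PLAGL1 averaged 16.1 ± 0.596, 9.69 ± 0.845 and 7.22 ± 0.383 CPM in the same order. GRB10 averaged 26.0 ± 1.39 CPM in APC, 51.9 ± 1.85 in CONTROL and 26.4 ± 0.715 in SW480, so CONTROL stood apart. IGF2 averaged 1.60 ± 0.247, 2.35 ± 0.360 and 4.08 ± 0.344 CPM in APC, CONTROL and SW480, and its call in APC against CONTROL (-0.56) was lost without APC replicate 2, at -0.46, and without CONTROL replicate 1, at -0.44.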
